A study of Mus musculus with 4 samples.

Results

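Adiponectin, aP2, adipsin and 7 other genes that mature fat cells express were measured in cultured mouse embryo fibroblasts (MEFs) without stathmin and in MEFs with it. The 10 genes are Adipoq, Pparg, Cebpa, Fabp4, Plin1, Cidec, Lpl, Retn, Cfd and Lep. They are 10 of the 19505 genes named on the array, were found there by gene name (Plin1 as Plin), and are read by 15 of its 41174 different probes. The list was chosen by knowledge of fat cells with the ratios of STMN1-/- over STMN1+/+ MEFs on these arrays already seen. Their values between genotypes are therefore given as a description, with no p-value attached.

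Total RNA was compared on 4 Agilent 2-color arrays of 60-mer probes. Each array held RNA of STMN1-/- MEFs and of STMN1+/+ MEFs, both of C57BL/6 background, labelled with different dyes. STMN1-/- RNA carried Cy3 on replicates 1 and 2 and Cy5 on replicates 3 and 4. The study's methods describe MEFs isolated from single embryos of heterozygous matings, a STMN1 gene disrupted by a neomycin cassette, and growth in medium with serum, and name no inducer of fat cell formation. Neither the labels nor the methods say which cell line or extract each array held, so the 4 arrays give the spread between hybridisations, which may be technical.

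The signals had their background subtracted and dyes normalized by the authors, and a log2 ratio below 0 means a lower signal in STMN1-/- MEFs. A probe was tested when either genotype was well above background (a mark of the scanning software) on at least 1 array, and 27724 probes were tested against 0 with limma, with a Benjamini-Hochberg adjusted threshold of 0.05. Over the 4 arrays the median processed signal lay between 1644 and 1799 in the STMN1-/- channel, and between 1648 and 1799 in the STMN1+/+ channel. The 2 probes for Stmn1, the disrupted gene, had mean log2 ratios of -0.39 and -2.16 and were lower in STMN1-/- MEFs on 4 of 4 arrays. The paper attributes the incomplete loss on the array to a flawed probe that also matches a second region of the genome. It does not say which of the 2 probes is meant. With qRT-PCR and western blots, the paper reports no Stmn1 mRNA or protein in STMN1-/- MEFs. These ratios are therefore no measure of remaining Stmn1 mRNA. Genes do not vary independently, and over the tested probes the log2 ratios of 2 arrays with equal dyes had r = 0.689 (replicates 1 and 2) or r = 0.703 (replicates 3 and 4), and for the 4 pairs with swapped dyes r lay between 0.445 and 0.489.

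White fat cells form from fibroblast-like progenitors when PPARγ and C/EBPα, the products of Pparg and Cebpa, switch each other on and bind near most genes of the mature cell. Those targets make the fatty acid carrier aP2 (Fabp4), lipoprotein lipase (Lpl), coats of the lipid droplet (Plin1, Cidec) and secreted proteins (Adipoq, Cfd, Retn, Lep). MEFs are a classic source of fat cells in culture because they enter this program under hormonal induction.

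To show what part of each mRNA was read, 5 of the probes are printed 5′ to 3′, with positions in mouse build mm7. They were chosen because they measure the fatty acid carrier at both ends of its message, the hormone specific to fat cells, the lipase and a factor whose signal was not lower. All letters are in lower case because the whole probe pairs with the labelled RNA. The Fabp4 probe A_51_P336830 covers 730 bases of the genome with 60 bases of sequence, so it crosses a splice junction.
Adipoq A_51_P458451, chr16:22816125-22816184: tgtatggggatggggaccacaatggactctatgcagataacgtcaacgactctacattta
Fabp4 A_51_P336830, chr3:10212718-10213447, minus strand: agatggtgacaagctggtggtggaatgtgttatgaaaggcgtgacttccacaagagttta
Fabp4 A_52_P564544, chr3:10216627-10216686, minus strand: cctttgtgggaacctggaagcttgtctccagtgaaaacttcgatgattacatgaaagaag
Lpl A_52_P257812, chr8:67355909-67355968: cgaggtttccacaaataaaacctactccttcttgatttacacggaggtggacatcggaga
Cebpa A_51_P214087, chr7:32010056-32010115: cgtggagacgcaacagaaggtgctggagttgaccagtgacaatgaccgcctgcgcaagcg

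RefSeq promoters (build GRCm38.p6) were at hand for 8 of the 10 genes, with 11 start sites in all. The 250 bases before the start are printed for Pparg (its most downstream start), Plin1, Adipoq and Cfd, since Pparg encodes a master factor, Plin1 holds 2 C/EBP matches and the other 2 genes encode secreted proteins detected in STMN1+/+ MEFs alone. Capitals mark matches, on either strand, to TTGCNNAA (a C/EBP site), AGGTCA (a half-site of PPAR and other nuclear receptors), CCAAT and TATAAA.
Pparg, chr6:115421816-115422065: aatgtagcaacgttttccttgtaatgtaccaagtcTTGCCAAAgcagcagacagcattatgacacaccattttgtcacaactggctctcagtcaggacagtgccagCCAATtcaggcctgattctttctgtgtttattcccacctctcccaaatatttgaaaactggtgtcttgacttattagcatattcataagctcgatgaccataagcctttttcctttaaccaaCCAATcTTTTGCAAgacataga
Plin1, chr7:79732777-79733026, minus strand: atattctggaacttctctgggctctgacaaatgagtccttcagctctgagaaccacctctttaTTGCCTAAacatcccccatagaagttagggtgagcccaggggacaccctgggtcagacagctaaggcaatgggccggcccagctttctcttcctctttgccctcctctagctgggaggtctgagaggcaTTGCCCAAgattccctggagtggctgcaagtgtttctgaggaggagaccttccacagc
Adipoq, chr16:23146286-23146535: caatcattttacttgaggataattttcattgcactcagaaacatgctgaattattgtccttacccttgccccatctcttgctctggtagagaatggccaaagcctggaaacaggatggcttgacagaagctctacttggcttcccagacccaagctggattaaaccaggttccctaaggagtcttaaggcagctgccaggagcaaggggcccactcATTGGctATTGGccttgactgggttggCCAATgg
Cfd, chr10:79890603-79890852: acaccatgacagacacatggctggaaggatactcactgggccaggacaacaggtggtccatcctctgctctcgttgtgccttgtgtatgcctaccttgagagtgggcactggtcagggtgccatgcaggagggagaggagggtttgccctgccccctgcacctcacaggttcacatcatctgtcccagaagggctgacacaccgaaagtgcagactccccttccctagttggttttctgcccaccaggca

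The C/EBP letters occurred in 4 of the 11 promoters, 1 each of Pparg, Plin1, Cidec and Lep, and in 9.56% of all 32851 promoters of the same length. The AGGTCA letters occurred in 2 of the 11, both of Pparg, and in 14.0% of all promoters. CCAAT occurred in 3 of the 11, before 2 starts of Pparg and 3 times within 34 bases of the Adipoq start, and in 33.8% of all promoters. TATAAA occurred in 2 of the 11, before Cebpa and 1 start of Pparg, and in 12.4% of all promoters. The Cfd stretch held none of these letters, and no position of a factor was measured in these cells.

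Taking all member probes together, 13 of 15 could be tested and both probes for Retn could not. Past the threshold were 8 probes for 6 genes, lower in STMN1-/- MEFs at Adipoq, Pparg, Fabp4 (3 probes), Cidec, Lpl (1 of 2 probes) and Cfd, and 0 probes were higher. Over all tested probes 11.1% were lower and 11.2% higher by the same rule. On 4 of 4 arrays 10 member probes had a ratio below 0, as 23.6% of the 26607 probes with 4 values had, and for 9 of them every STMN1-/- signal lay below every STMN1+/+ signal, as for 11.1% of those probes. Because the comparison chose the genes, nothing is read from these counts. With fewer cells of a type and less RNA per cell, bulk RNA gives the same lower signal, and the arrays cannot tell these apart.

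**Figure D1:**
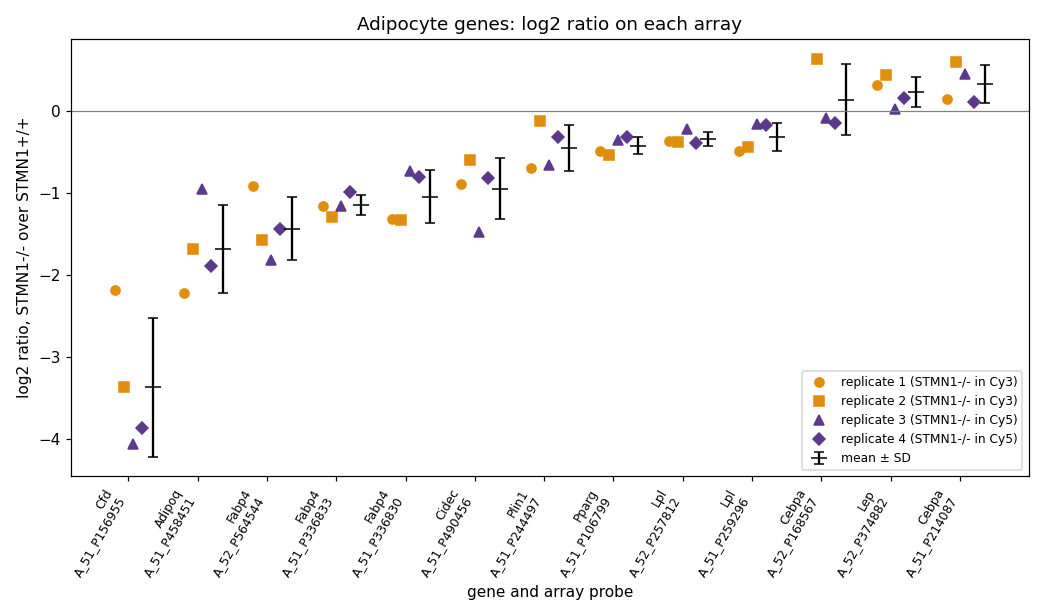
Log2 ratio of STMN1-/- over STMN1+/+ signal for each tested probe of the adipocyte genes, with 1 point per array (orange where STMN1-/- RNA was in Cy3, purple where it was in Cy5) and the mean with its SD in black. Cfd, whose STMN1-/- signals were not well above background, had a mean of -3.37, and the 2 Cebpa probes and Lep had means above 0.

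Of the 10 genes, taking those well above background in both genotypes on all 4 arrays, Fabp4 had the lowest ratio. Probe A_51_P336833 for Fabp4 gave 4934, 4602, 4892 and 5691 in STMN1-/- MEFs on replicates 1 to 4, against 11045, 11258, 10905 and 11346 in STMN1+/+ MEFs. The junction probe A_51_P336830 gave 3403, 3574, 4789 and 5205 in STMN1-/- MEFs, against 8518, 8967, 7963 and 9128 in STMN1+/+ MEFs. Both probes separated the genotypes completely on these 4 arrays, and no STMN1-/- signal came near the lowest STMN1+/+ signal. Mean log2 ratios were -1.15 ± 0.12 and -1.05 ± 0.32 (SD, n = 4), that is 2.22 fold and 2.07 fold lower in STMN1-/- MEFs.

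The junction probe moved with the dye orientation. Its ratio averaged -1.33 with STMN1-/- RNA in Cy3 and -0.77 with it in Cy5, while A_51_P336833 averaged -1.23 and -1.08. In both orientations STMN1-/- MEFs had the lower signal. The probe nearer the 5′ end of the message, A_52_P564544, lay close to background in STMN1-/- MEFs. It gave 116, 88.9, 65.6 and 110 in STMN1-/- MEFs, not well above background on any array, against 220, 265, 232 and 297 in STMN1+/+ MEFs, well above background on all 4. By this probe Fabp4 was on average 2.71 fold lower in STMN1-/- MEFs, and 1.89 to 3.54 fold lower on single arrays. For other dim probes a floored fold is given below, which sets the brighter genotype against the higher of 2 signals on each array. These are the dim probe's own signal and the lowest signal well above background. That lowest signal was 57.8 to 93.9 after all arrays were scaled alike, the dim probe's signal with them, and the floored fold is open to dye bias in single arrays. Probe A_52_P564544 lay above that lowest signal on all 4 arrays, so its bound would equal the measured fold. Signals of different probes cannot be ranked against each other, since probes differ in how well they bind.

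Lpl codes for lipoprotein lipase, which frees fatty acids from circulating lipoproteins for uptake. Probe A_51_P259296 gave 8338, 9176, 10268 and 10657 in STMN1-/- MEFs, against 11732, 12492, 11552 and 12023 in STMN1+/+ MEFs. Probe A_52_P257812 gave 2220, 2345, 2273 and 2398 in STMN1-/- MEFs, against 2875, 3065, 2651 and 3158 in STMN1+/+ MEFs. The genotypes did not overlap by either probe, but the differences were small beside those of Fabp4. Mean log2 ratios were -0.32 ± 0.17 and -0.34 ± 0.08 (SD, n = 4), that is 1.25 fold and 1.27 fold lower in STMN1-/- MEFs, and the threshold was passed by the second probe alone. On replicates 1 and 2 the first probe averaged -0.47, and on replicates 3 and 4, with the dyes swapped, -0.17.

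Pparg encodes the nuclear receptor PPARγ, without which fat cells do not form. Its single probe (A_51_P106799, mm7 chr6:115515909-115515968) was spotted 10 times on every array, so the error within an array can be seen. Array means were 3047, 3124, 3189 and 3599 in STMN1-/- MEFs, against 4278, 4545, 4096 and 4509 in STMN1+/+ MEFs. No array mean of STMN1-/- MEFs reached the lowest one of STMN1+/+ MEFs. The mean log2 ratio was -0.43 ± 0.10 (SD, n = 4 arrays), 1.35 fold lower.

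Of the 40 spots, 39 could be used, and the STMN1-/- signal was lower in 39 of 39, with log2 ratios of -0.63 to -0.25. Within an array single spots differed with an SD of 0.0418 to 0.114 on the log2 scale, and the 4 array means, each over 9 or 10 spots, with an SD of 0.103. These spots share 1 labelled RNA per array and are not replicates of a genotype. A Pparg ratio was lower with STMN1-/- RNA in Cy3 (mean -0.52) than in Cy5 (mean -0.34).

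**Figure D2:**
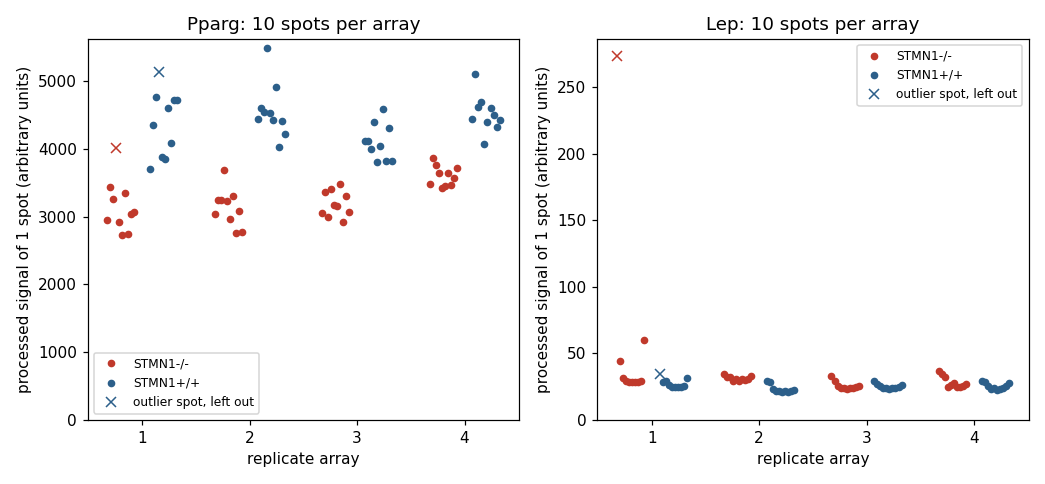
Processed signals (arbitrary units) of the 10 repeated spots per array for Pparg, on the left, and Lep, on the right, with STMN1-/- in red left of STMN1+/+ in blue on each replicate. Crosses are spots left out as outliers, and in the Lep panel the cross at 273.6 is the lone spot well above background.

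Cebpa encodes C/EBPα, the partner of PPARγ in the mature fat cell, and unlike Pparg it did not pass the threshold by either probe. Probe A_51_P214087 gave 162, 215, 161 and 151 in STMN1-/- MEFs, against 146, 142, 119 and 140 in STMN1+/+ MEFs. All 4 STMN1-/- signals were above all 4 STMN1+/+ signals, as for 11.1% of all tested probes with 4 values, yet each genotype was well above background on only some arrays (3 for STMN1-/- and 2 for STMN1+/+). The mean log2 ratio of 0.32 ± 0.23 (SD, n = 4) did not pass the threshold. Probe A_52_P168567 (mm7 chr7:32011212-32011271) gave 622, 473 and 397 on replicates 2 to 4 in STMN1-/- MEFs, against 402, 503 and 441 in STMN1+/+ MEFs. These 3 pairs overlapped, with a mean log2 ratio of 0.13 ± 0.43 (SD, n = 3). The spot of replicate 1 was marked as an outlier, with 4915 in the STMN1-/- channel and 816 in the STMN1+/+ channel, and was left out. With it included the mean log2 ratio was 0.75.

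Adipsin and adiponectin are secreted proteins whose probes were well above background in STMN1+/+ MEFs alone. Cfd encodes adipsin (complement factor D), a protease that fat cells secrete in quantity. Its probe (A_51_P156955, mm7 chr10:79672573-79672632) gave 53.0, 30.0, 23.3 and 23.8 in STMN1-/- MEFs, against 240, 309, 389 and 347 in STMN1+/+ MEFs. No array had a STMN1-/- signal well above background, and on 3 of 4 arrays it was a surrogate, a value that the software writes when no signal stands out. STMN1+/+ MEFs were well above background on all 4 arrays. Before correction, the Cfd spot had 1.16 to 1.76 times its local background in the STMN1-/- channel and 1.95 to 3.56 times in the STMN1+/+ channel. For the other probes near background that passed the threshold these raw ranges overlapped, with 1.38 to 1.91 in STMN1-/- and 1.87 to 2.44 in STMN1+/+ for Adipoq, 1.43 to 1.99 and 1.89 to 2.64 for Fabp4 A_52_P564544, and 1.47 to 2.29 and 2.11 to 2.56 for Cidec. The log2 ratios of Cfd were -2.18, -3.37, -4.06 and -3.87, and by the floored fold it was 4.43 fold lower in STMN1-/- MEFs.

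Adipoq encodes adiponectin, a hormone made almost only by fat cells, and so is the most specific marker on the list. The probe gave 41.0, 61.9, 93.9 and 48.5 in STMN1-/- MEFs, against 191, 199, 182 and 180 in STMN1+/+ MEFs. STMN1+/+ signals lay within a narrow band and were well above background on all 4 arrays, while no STMN1-/- signal was. The log2 ratios of -2.22, -1.69, -0.95 and -1.89 had a mean of -1.69 (SD 0.54, n = 4), and the STMN1-/- signals varied more between arrays than the STMN1+/+ signals (SD 23.4 and 9.11). By the floored fold, Adipoq was 2.38 fold lower in STMN1-/- MEFs.

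The 2 remaining hormones were not detected in either genotype. Retn encodes resistin, and its probes A_51_P233597 and A_52_P55972 had signals of 24.2 to 58.9 in STMN1-/- MEFs and of 22.1 to 100.2 in STMN1+/+ MEFs, with no array well above background. Lep encodes leptin, whose level tracks fat mass in the animal. Its probe (A_52_P374882, mm7 chr6:29005380-29005439) had array means of 33.0, 31.3, 25.5 and 28.1 in STMN1-/- MEFs, against 26.6, 23.1, 25.2 and 25.2 in STMN1+/+ MEFs. All 39 usable spots of the 40 were not well above background, and the probe entered the test through a single spot on replicate 1 that was left out as an outlier (273.6 in the STMN1-/- channel and 34.4 in the STMN1+/+ channel). The ratios of Lep and Retn therefore compare background with background.

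Both droplet proteins were near background in STMN1-/- MEFs. Cidec encodes a protein that joins droplets into the large one of a white fat cell, and its probe (A_51_P490456, mm7 chr6:113585627-113585686) gave 151, 180, 80.3 and 127 in STMN1-/- MEFs, against 281, 274, 224 and 225 in STMN1+/+ MEFs. The genotypes did not overlap. The mean log2 ratio was -0.95 ± 0.37 (SD, n = 4), but STMN1-/- MEFs were well above background on 1 array only and STMN1+/+ MEFs on 4. Plin1 encodes perilipin, the coat that guards the droplet against lipases, and its probe (A_51_P244497, mm7 chr7:75590467-75590526) gave 73.2, 122, 67.5 and 85.2 in STMN1-/- MEFs, against 119, 134, 107 and 106 in STMN1+/+ MEFs. Here the genotypes overlapped across arrays, although the ratio was below 0 on each of the 4. STMN1+/+ MEFs were well above background for Plin1 on 1 array only, and the mean log2 ratio of -0.46 ± 0.28 (SD, n = 4) did not pass the threshold.

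The dim genes depended on how background was removed. With normexp correction of the mean signals (offset 50) and loess, which pulls dim ratios toward 0, 3 of the 13 probes passed the threshold, Pparg (-0.28) and the 2 bright Fabp4 probes (-0.91 and -0.77). Under that correction Cfd had a mean log2 ratio of -0.52, Adipoq -0.22, the third Fabp4 probe -0.21 and Cidec -0.16, none of them past the threshold. Lpl A_52_P257812, well above background in both genotypes on all 4 arrays, lost its call too (-0.19). Each of these ratios kept its sign. Cebpa came to 0.03 and -0.02 by its 2 probes.

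**Figure D3:**
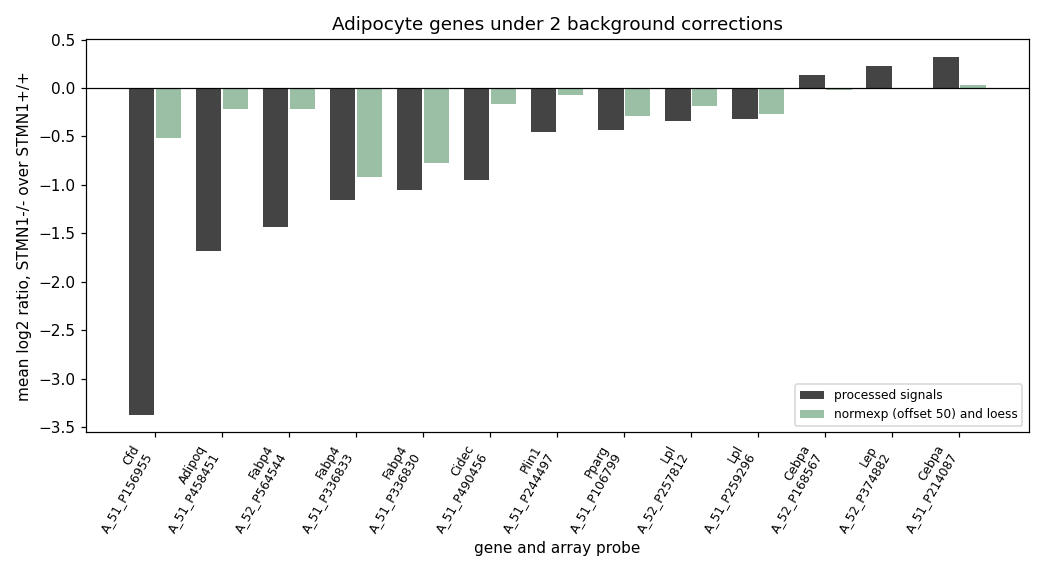
Mean log2 ratio of STMN1-/- over STMN1+/+ for each tested probe of the adipocyte genes, from processed signals (dark bars) and from normexp (offset 50) with loess (light bars). The bars of Cfd (-3.37 and -0.52) and Adipoq (-1.69 and -0.22) differ most, those of the bright Fabp4 probe A_51_P336833 (-1.15 and -0.91) little.

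Around the 10 genes, 109 genes in 7 lists cover other steps of the fat cell program, and 100 of them could be tested by 1 probe each, the one with the highest mean signal. Of these, 23 were higher and 23 lower in STMN1-/- MEFs by limma (adjusted p under 0.05), beside 13.4% higher and 12.3% lower among 14993 named genes. When each array was left out in turn, 11 of the 23 higher and 13 of the 23 lower genes passed every time, and Dlk1, Cidea and Klf5 were among those that did not. With normexp and loess, 9 of the 23 higher and 8 of the 23 lower genes kept their calls. Lepr (-0.40), Cd36 (-0.42), Cidea (-0.25) and Cox8b (-0.16) did not. Nor did many genes well above background in both genotypes on all 4 arrays. The higher ones included Slc2a4 (0.49), Rarres2 (0.37), Tbx1 (0.53), Tmem26 (0.27), Dio2 (0.32) and Lmf1 (0.54). The lower ones included Wnt10b (-0.40), Gata3 (-0.49), Gpd1 (-0.23), Ppargc1a (-0.23), Plin4 (-0.33) and Rbp4 (-0.31). The median log2 ratio of the 100 genes was 0.07, that of the 9 tested adipocyte genes -0.46 and that of all named genes 0.01. Since the adipocyte genes were chosen with these ratios seen, nothing is read from their median. The lists too were chosen with earlier results of these data known, so their counts and medians are a description. All values of list genes below are mean log2 ratios ± limma's SE over 4 arrays with adjusted p-values from limma over all tested probes.

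Receptors and other signals included the lowest ratio in any list. Lepr, the leptin receptor, had -2.64 ± 0.13 (adjusted p = 0.000808), with 53.0 in STMN1-/- MEFs, not well above background on any array, against 330 in STMN1+/+ MEFs (geometric means). By the floored fold it was 4.62 fold lower by this probe and 3.28 fold lower by its second probe. The receptors of adiponectin were not past the threshold, with -0.07 ± 0.05 for Adipor1 (adjusted p = 0.407) and 0.20 ± 0.08 for Adipor2 (adjusted p = 0.141). Cdh13, T-cadherin, which holds adiponectin at the cell surface, was 0.22 ± 0.06 (adjusted p = 0.0478), while its second probe gave -0.09 (adjusted p = 0.59).

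Of the 17 tested adipokine and receptor genes 4 fell and 3 rose. Apln, the peptide hormone apelin, had -0.96 ± 0.08 (adjusted p = 0.00224). Rbp4, the retinol carrier, fell by 0.63 on the log2 scale (adjusted p = 0.0115). In the other direction Rarres2, which encodes chemerin, rose 1.75 fold (log2 ratio 0.80 ± 0.10, adjusted p = 0.00799).

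**Figure D4:**
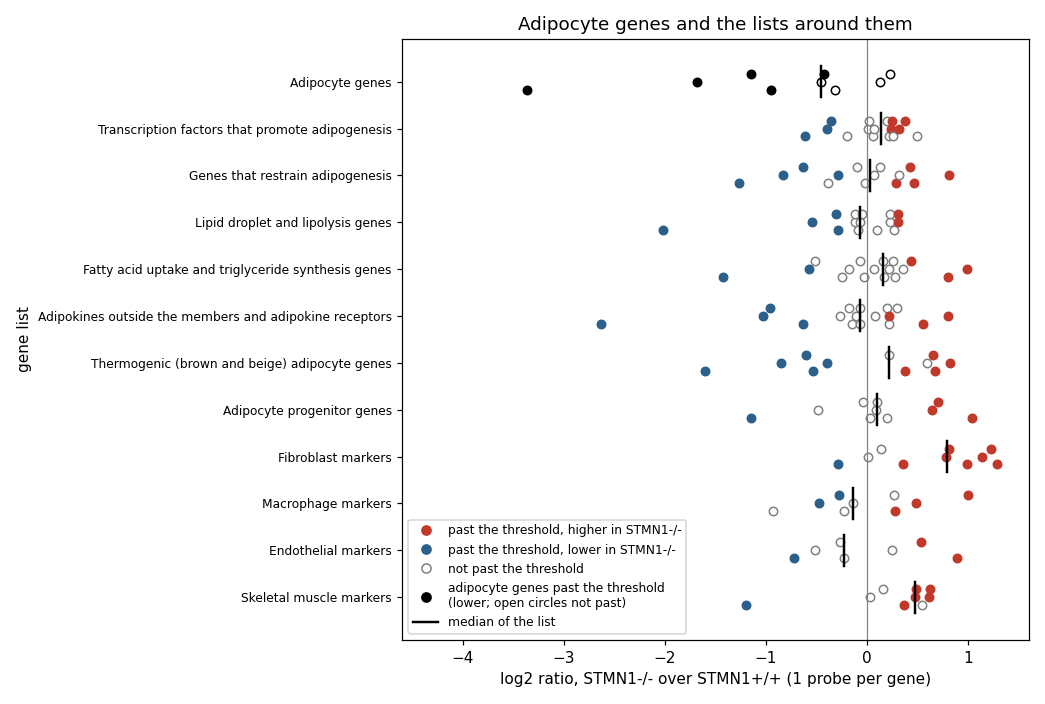
Log2 ratio of STMN1-/- over STMN1+/+ for 1 probe per gene in the adipocyte genes (black) and in 11 lists around them, with filled points past the threshold (red higher, blue lower) and a bar at each list's median. The median was -0.46 for the adipocyte genes, which were chosen with these ratios seen, 0.80 for fibroblast markers and between -0.23 and 0.48 for the other lists.

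Among 16 transcription factors that promote fat cell formation, 4 rose and 3 fell. Klf5, which acts on Pparg, had -0.61 ± 0.12 (adjusted p = 0.0236), and -1.45 by its second probe, which was well above background on 1 array in STMN1+/+ MEFs and on none in STMN1-/- MEFs. Nr3c1, the glucocorticoid receptor, was -0.39 ± 0.07 (adjusted p = 0.0187), with -0.64 to -0.29 by its 3 other probes, and Ebf2 -0.35 ± 0.09 (adjusted p = 0.0464). Rxra, the partner with which PPARγ binds DNA, was higher in STMN1-/- MEFs (0.38 ± 0.07, n = 3 arrays, adjusted p = 0.0309), while its second probe did not pass (0.26, adjusted p = 0.0615). Ppargc1b, a coactivator, was higher too (0.32 ± 0.05, adjusted p = 0.0144). The early factors Cebpb and Cebpd, which precede Pparg and Cebpa, were 0.21 ± 0.06 (adjusted p = 0.0626) and 0.07 ± 0.05 (adjusted p = 0.4). Of the 7 calls in this list, 0 passed in every fit that left out 1 array.

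Genes that restrain fat cell formation were divided as well, with 4 of 14 higher and 4 lower. Wnt10b, a ligand that keeps precursors undifferentiated, had 322 in STMN1-/- MEFs against 776 in STMN1+/+ MEFs (geometric means, 2.41 fold lower, adjusted p = 0.00107). The GATA factors fell too, Gata2 by 0.83 (adjusted p = 0.00322) and Gata3 by 0.64 (adjusted p = 0.00708) on the log2 scale. Ddit3, the stress factor CHOP that blocks C/EBP proteins, rose 1.75 fold (adjusted p = 0.00157), and Zfp521 rose 1.39 fold (adjusted p = 0.00947). Dlk1, the preadipocyte factor Pref-1, was 0.29 ± 0.06 (adjusted p = 0.0263).

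Of 15 tested genes for the lipid droplet and lipolysis, 4 fell and 2 rose. Cidea, the relative of Cidec found in brown fat, had 43.7 in STMN1-/- MEFs, not well above background on any array, against 177 in STMN1+/+ MEFs (geometric means, adjusted p = 0.0173). By the floored fold it was 2.38 fold lower. Plin4 fell by 0.54 on the log2 scale (adjusted p = 0.0104). Over 4 arrays the higher genes were Mgll, monoglyceride lipase (0.31 ± 0.06, adjusted p = 0.0239), and Plin3 (0.31 ± 0.07, n = 3 arrays, adjusted p = 0.0433). In fits that left out 1 array both lost their calls each time, and 1 or 2 of the list's genes were lower. The lipases of the droplet and their activator were not past the threshold, with -0.12 ± 0.05 for Pnpla2 (adjusted p = 0.173), 0.23 ± 0.07 for Lipe (adjusted p = 0.0701) and 0.10 ± 0.06 for Abhd5 (adjusted p = 0.284).

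Fatty acid uptake and triglyceride synthesis had 2 lower and 3 higher genes of 17. Cd36, the fatty acid transporter, was 2.68 fold lower (222 in STMN1-/- MEFs against 596 in STMN1+/+ MEFs, geometric means, adjusted p = 0.00241). Its second probe gave a smaller log2 difference of -0.91 (adjusted p = 0.0025). Gpd1, which makes the glycerol backbone, was 1.49 fold lower (adjusted p = 0.00604). Slc2a4, the insulin-regulated glucose transporter GLUT4, was higher at 1492 in STMN1-/- MEFs against 751 in STMN1+/+ MEFs (geometric means, 1.99 fold, adjusted p = 0.00113). Vldlr, a receptor for lipoproteins, rose 1.75 fold (adjusted p = 0.00207). Fabp5, the relative of Fabp4, had ratios of -1.26, -0.65, 0.03 and -0.16 and did not pass (adjusted p = 0.173). Of the proteins that Lpl needs, Lmf1, which helps it fold, rose 1.35 fold (adjusted p = 0.0151), and Gpihbp1, which carries it across capillaries, was 0.07 ± 0.08 (adjusted p = 0.616).

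Thermogenic genes split 5 lower and 4 higher of 11. Cox8b, a cytochrome oxidase subunit of brown fat, had 58.5 in STMN1-/- MEFs, not well above background, against 177 in STMN1+/+ MEFs, well above it on 3 arrays (adjusted p = 0.0222). By the floored fold it was 2.21 fold lower. Ppargc1a, a coactivator of mitochondrial genes, was 1.80 fold lower (adjusted p = 0.0038). Tbx1 (0.82 ± 0.10, adjusted p = 0.00708), Tmem26 (0.67 ± 0.08, adjusted p = 0.00648) and Dio2, which activates thyroid hormone (0.65 ± 0.07, adjusted p = 0.00418), were higher. For Ucp1, the uncoupling protein that defines brown fat, no array had a signal well above background in either genotype.

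Of 10 progenitor genes, 3 were higher and 1 lower, and 6 did not pass. Pdgfrb and Pdgfra, receptors for platelet-derived growth factor that mark fat cell progenitors, rose 2.06 fold (adjusted p = 0.000836) and 1.62 fold (adjusted p = 0.00632). Ly6a, the surface protein Sca-1, rose 1.56 fold (adjusted p = 0.0119). Cd34, which marks progenitors and endothelium, was 2.22 fold lower (adjusted p = 0.000836).

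Markers of other cell types were counted by the same rule, by which 13.4% of all named genes were higher and 12.3% lower. The fibroblast list, which checks the labelled cell type, had all 10 genes measured, with 7 higher and 1 lower in STMN1-/- MEFs and a summed signal of 3360240 to 4384488 against 1909357 to 2301576 in STMN1+/+ MEFs. A sum is set by its brightest probes. In STMN1-/- MEFs most of it was Col1a2 (1353535, against 612401 in STMN1+/+ MEFs) and Col1a1 (871740, against 358145, geometric means). Col1a1 rose 2.43 fold (adjusted p = 0.000803), Col3a1 2.35 fold (adjusted p = 0.000803), Col1a2 2.21 fold (adjusted p = 0.00959), Dcn 1.99 fold (adjusted p = 0.000985) and Fn1 1.76 fold (adjusted p = 0.00982). Macrophages express Lpl, Fabp4 and Cd36. Of 9 measured macrophage markers 3 were higher and 2 lower, Itgam was not well above background, and the summed signal was 128518 to 150126 in STMN1-/- MEFs against 153985 to 175357 in STMN1+/+ MEFs. Most of that sum was Lyz2, lysozyme (129200 in STMN1-/- MEFs and 151406 in STMN1+/+ MEFs, geometric means), which did not pass by the probe used (adjusted p = 0.0858). By its second, dimmer probe (1541 and 2092) Lyz2 was lower in STMN1-/- MEFs (-0.44, adjusted p = 0.00655). Aif1 rose 2.00 fold (adjusted p = 0.00432) and Fcgr1 1.40 fold (adjusted p = 0.00714). Csf1r had 0.28 ± 0.06 (adjusted p = 0.0353), while its second probe gave 0.13 (adjusted p = 0.675). Cd14 (-0.48 ± 0.06, adjusted p = 0.00617) and Cd68 (-0.28 ± 0.06, adjusted p = 0.0295) were lower.

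Endothelial cells express Fabp4 and Cd36 too. In that list Pecam1, Cdh5 and Tie1 were not well above background in either genotype, 2 of 7 measured markers were higher and 1 lower, and the summed signal was 8252 to 9367 in STMN1-/- MEFs against 9604 to 10434 in STMN1+/+ MEFs. Most of that sum was Eng (5324 in STMN1-/- MEFs and 6411 in STMN1+/+ MEFs, geometric means), which did not pass (adjusted p = 0.0505). Vwf rose 1.85 fold (adjusted p = 0.00297) and Emcn 1.45 fold (adjusted p = 0.0107), whereas Kdr fell by 0.72 on the log2 scale (adjusted p = 0.00287) by the probe used and had 0.20 (adjusted p = 0.24) by its second, which was not well above background in either genotype. Skeletal muscle markers were higher for 5 and lower for 1 of 9, and their summed signals overlapped (61548 to 85745 in STMN1-/- MEFs and 59812 to 75768 in STMN1+/+ MEFs). Most of that sum was Acta1 (57474 in STMN1-/- MEFs and 51618 in STMN1+/+ MEFs, geometric means), which did not pass (adjusted p = 0.117). Myh3 (0.62 ± 0.07, adjusted p = 0.0057), Cdh15 (0.62 ± 0.06, adjusted p = 0.0033), Mylpf (0.49 ± 0.07, adjusted p = 0.00897) and Tnnt3 (0.48 ± 0.12, adjusted p = 0.0493) rose, Chrna1 was 2.30 fold lower (adjusted p = 0.00232), and Ckm was not well above background. The part of these cell types in the values of the adipocyte genes was not tested.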

How the data were processed

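RNA of STMN1-/- and STMN1+/+ MEFs was hybridised together on 4 2-color arrays. The intensity values are those the authors deposited, made per the file headers with Agilent Feature Extraction 9.5.3.1 (background subtraction, dye normalization within each array, surrogates for dim spots). Another 2 deposited files, lists of probes that the authors selected by their own comparison, were not used. Of 45018 spots per array, 1639 control spots were removed, as were 472 to 711 spots that the software marks as outliers. Spots of a probe were averaged, and log2 ratios were turned by the labelled dyes. Of 41174 probes, 27759 were kept and 35 of these had no usable spot. Ratios were tested against 0 with limma 3.58.1 (R 4.3.3; two-sided, Benjamini-Hochberg, threshold 0.05), after a check on simulated data. Figures used matplotlib 3.10.9. Probe names were matched to RefSeq symbols by accession, symbol or synonym.

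The number of arrays limits the precision. The members and gene lists were chosen with earlier results of these data known. Named are all members, up to 5 genes per list by the largest ratio among those past the threshold, and receptors, partners and lipases fixed by name, of which 2 genes are not reported here. Alternatives were normexp with loess, median centring, other filters, outlier spots kept, a dye coefficient, the methods' t-test, the same t-test on probes whose coefficient of variation was under 50%, each array left out, and the median over a gene's probes.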

Additional observations from a re-analysis of the deposited data

Results flagged for a closer look

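Among 42 sets of 4 array values for the adipocyte genes (ratios and signals of each probe), 2 held an array that lay far from the other 3 by Dixon's criterion, which chance alone gives in about 1 in 20 sets. The STMN1-/- signal of Cebpa probe A_51_P214087 was 215 on replicate 2, against 151 to 162 on the other arrays. The log2 ratio of Lpl probe A_52_P257812 was -0.22 on replicate 3, nearer 0 than the -0.40 to -0.37 of the other arrays.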

How the results depend on the processing

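Of the 13 tested adipocyte probes, 8 were lower. The count fell to 3 with normexp and loess and to 5 with the methods' t-test, without or with the coefficient of variation under 50%, and was 5 to 8 when each array was left out. It stayed at 8 or 9 under median centring, other filters on dim probes, outlier spots kept and a dye coefficient. With the dye coefficient 2 probes were higher (Cebpa A_52_P168567 and Lep). Fabp4 probe A_51_P336833 was lower in all 12 alternatives. Adipoq and Cidec did not pass under either form of the methods' t-test, and Fabp4 A_51_P336830 not under the first. Cfd was dropped from the second form, as its coefficient of variation was not under 50%. Pparg lost its call without replicate 1 and without replicate 2, and Cidec without replicate 1 and without replicate 4. Lpl A_52_P257812 lost its call without replicates 1, 2 and 4 in turn. None of the 8 probes changed sign. In the 7 pathway lists the 23 higher genes became 10 with normexp, 38 with the dye coefficient and 11 to 14 without 1 array, and the 23 lower genes 8 with normexp, 14 with either form of the methods' t-test and 15 without 1 array. Over all probes, the 3094 higher and 3082 lower calls became 990 and 1143 with normexp, 1967 and 1871 with no filter on dim probes, 5357 and 5354 with the dye coefficient, 1975 and 1882 with the methods' t-test, 2024 and 1952 with its coefficient of variation under 50%, and 1450 to 1647 higher and 1338 to 1529 lower without 1 array. The cause was not tested, except that fits without 1 array have fewer samples. A slide or scan block could not be fitted, since all arrays share 1 slide and 1 scan. The ratio within each array already pairs the genotypes, so no further block was fitted. Signal over background limits Cfd, Adipoq, Plin1, Cidec and the third Fabp4 probe.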
